A study of Mus musculus with 6 samples.

Results

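Integrins and laminins, the receptors and the basement membrane ligands through which epithelial cells hold on to matrix, were followed in 6 cell lines derived from mouse liver tumors. The genes were taken by name, as every integrin alpha or beta subunit and every laminin alpha, beta or gamma chain in the deposited expression table. Earlier results of these data were known when they were chosen. The names gave 37 of the 20856 genes with values, made up of 26 integrins and 11 laminins.

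RNA-seq compared liver tumor lines of C57BL/6 mice in 2 groups of 3. Tumors were started in the livers of living mice by hydrodynamic transfection of a *Myc* transposon with a px330 plasmid, which supplies Cas9 and a guide RNA. The guide targeted *Trp53* in the group labelled *Myc*;sgp53/Cas9 (*Myc*; sg*Trp53* below) and *Kmt2c*, the gene of the histone methyltransferase MLL3, in the group labelled *Myc*;sgMll3/Cas9 (*Myc*; sg*Kmt2c* below). Cells were grown in serum-containing DMEM on collagen-coated plates and passaged until fibroblasts could no longer be seen. All 6 lines carry the *Myc* transposon and by design neither group has both targeted genes intact, so each difference below is one between the genotypes and not one from an unedited state. The study describes the lines of a genotype as coming from different mice, and the p-values therefore measure the spread between tumor lines. The descriptions in the labels give sg*Kmt2c* lines 2 and 3 the same leading number, however, and whether they share a mouse or tumor is not stated there. Their mean was therefore also used as 1 sample. The age and sex of the mice are not in the labels, but the study's methods state both for its purchased C57BL/6 mice, which were female.

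The libraries held 3680068 to 6878625 reads on listed genes, and all 6 were run in the same 2 lanes. Values are RPKM, reads per kilobase of transcript scaled by the number of counted reads. Wherever 3 values are listed for a genotype they stand for lines 1, 2 and 3 in that order. *Trp53* stood at 17.2, 17.6 and 19.4 (sg*Trp53*) and 92.2, 124 and 121 (sg*Kmt2c*). *Kmt2c* stood at 24.2, 18.4 and 19.2 (sg*Trp53*) and 19.7, 25.0 and 9.51 (sg*Kmt2c*), so its RNA overlapped between the genotypes and gave no check of the labels. The hepatocyte markers were uneven, with *Alb*, the defining one, only 0.644 to 4.36 RPKM across the lines, while the 7 markers in the table summed to 31.2, 7.07 and 20.7 (sg*Trp53*) and 1229.6, 4.14 and 175 (sg*Kmt2c*). Nearly all of the higher sums was *Hnf4a*, a hepatocyte and epithelial transcription factor at 24.7, 3.49 and 15.8 (sg*Trp53*) and 1186, 0.629 and 169.9 (sg*Kmt2c*), whose RPKM is raised beside that of other genes by a listed transcript of 431 against 4362 bases. In sg*Kmt2c* line 1, *Afp* and *Ttr* stood at 19.3 and 14.1. Endothelial markers summed to at most 1.27 RPKM in any line. *Ptprc*, the pan-leukocyte gene, was at most 0.0655, but other immune markers were read. The 9 immune markers summed to 49.9, 23.5 and 62.2 (sg*Trp53*) and 6.60, 5.91 and 15.2 (sg*Kmt2c*). Of these, *Lyz2* alone stood at 29.0, 17.1 and 45.3 in the sg*Trp53* lines. The 7 epithelial and biliary markers, keratins and a cadherin among them, summed to 1022, 68.5 and 823 (sg*Trp53*) and 6808, 245 and 689 (sg*Kmt2c*). In RNA from whole cultures, fewer cells of a type and less RNA per cell cannot be told apart.

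An integrin is a pair of an alpha and a beta subunit that spans the membrane and joins matrix outside the cell to actin or keratin filaments inside. The pair decides the ligand, with some pairs binding collagen, some laminin and some the RGD motif of fibronectin and vitronectin. A laminin is a cross-shaped trimer of an alpha, a beta and a gamma chain that polymerizes into the sheet of a basement membrane. In healthy liver, hepatocytes border a matrix poor in laminin, whereas bile duct cells sit on a laminin-rich basement membrane.

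Among the members with enough reads to test, the lines of the genotypes were apart for a pair of genes. *Itgb4*, the beta subunit of the hemidesmosome receptor for laminin, was higher in every sg*Kmt2c* line, and *Lamb1*, the beta chain of the widespread laminins, was lower in every sg*Kmt2c* line. Of the 37 genes, 19 passed the filter on low values (RPKM of 1 or more in 3 or more of the 6 libraries) and were tested, 12 of them integrins and 7 laminins, within a fit over 11617 genes. Of the 18 others, 6 reached RPKM 1 in some line and 12 in none. None of the 19 had an adjusted p-value under 0.05 by limma, where 0.129% of all genes tested did (0.0516% higher and 0.0775% lower in the sg*Kmt2c* lines). An unadjusted p-value under 0.05 was found for 2 of 19 (10.5%), 1 higher and 1 lower, against 8.58% of all genes tested (3.25% higher and 5.34% lower). That count became 4 without sg*Trp53* line 2 and 5 without sg*Kmt2c* line 2. The share of all genes also moves with the line left out (6.58% without sg*Trp53* line 1, where the count was 3). The 2 changed counts are given without it and so are not a result about the family. No overlap between sg*Trp53* and sg*Kmt2c* lines was seen in the same 2 of 19 (10.5%), against 16.2% of all genes tested (5.72% higher and 10.4% lower). The first share is close to that of all genes and the second below it. *Itgb4* met the filter through the sg*Kmt2c* lines alone, in which it is high, so that it had to differ once tested, and these counts only describe the members that passed. With no filter on low values, 3 of 36 members had an unadjusted p-value under 0.05 (*Itgb4*, *Lamb1* and *Itgal*) beside 7.32% of all genes. By limma voom on the recovered reads, the other test run, no member passed the adjusted threshold either and the unadjusted one was again met by 2. The median log2 fold change (sg*Kmt2c* over sg*Trp53*, on the log2(RPKM + 1) scale, which understates the change of low genes) was -0.15 over the 12 integrins and 0.23 over the 7 laminins, beside -0.09 over all genes tested. With a line left out these medians ran from -0.24 to 0.07 and from -0.25 to 0.51, so neither held its direction. The fold change was above 0 in 10 of the 19 members and in 42% of all genes tested.

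**Figure D1:**
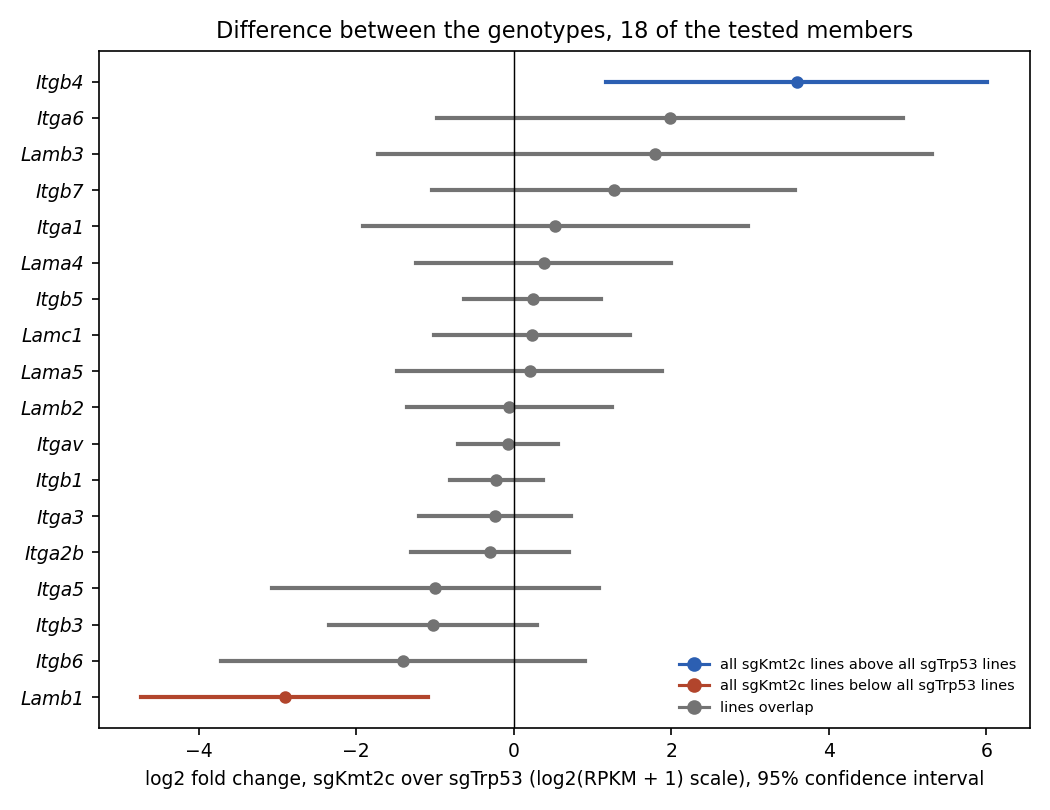
The x axis gives the log2 fold change of 18 of the 19 tested genes, sg*Kmt2c* over sg*Trp53* on the log2(RPKM + 1) scale, as points with 95% confidence intervals from limma. Among those drawn, only the intervals of *Itgb4* (1.17 to 6.02) and *Lamb1* (-4.73 to -1.09), drawn in color because the lines of the genotypes do not overlap, lie wholly on one side of 0.

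The laminin receptors held both steady and variable members. *Itga3*, the alpha subunit that pairs with *Itgb1* to bind laminin, was read at 94.2, 55.7 and 126 (sg*Trp53*) and 106, 80.0 and 47.0 (sg*Kmt2c*) RPKM. The order of the lines mixed the genotypes, and its log2 fold change was -0.24 ± 0.40 (SE, limma adjusted p = 0.857). *Itga6*, the laminin-binding alpha subunit that pairs with either *Itgb1* or *Itgb4*, was read at 37.8, 5.05 and 58.7 (sg*Trp53*) and 443, 23.4 and 78.8 (sg*Kmt2c*). Its highest value, in sg*Kmt2c* line 1, lay 5.62-fold above the next line and 87.7-fold above the lowest, sg*Trp53* line 2. The log2 fold change of *Itga6* was 1.98 ± 1.24 (SE, 95% confidence interval, CI, -0.97 to 4.94, limma adjusted p = 0.679), and the genotypes overlapped.

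*Itgb4* pairs with *Itga6* alone and carries a long cytoplasmic tail that binds the keratin filament linker plectin. It had 11, 4 and 15 (sg*Trp53*) and 2461, 100 and 160 (sg*Kmt2c*) as whole reads, which gave 0.300, 0.125 and 0.362 (sg*Trp53*) and 86.8, 4.51 and 6.22 (sg*Kmt2c*) as RPKM. All sg*Trp53* lines were below an RPKM of 0.4 and all sg*Kmt2c* lines above 4, with sg*Kmt2c* line 1 lying 14.0-fold above the next. Its mean went from 0.262 ± 0.123 (SD, n = 3 lines) to 32.5 ± 47.0 (SD, n = 3) RPKM, sg*Trp53* to sg*Kmt2c*, and the log2 fold change was 3.59 ± 1.01 (SE, 95% CI 1.17 to 6.02). The unadjusted p-value was 0.0103 and the adjusted one 0.424 (limma), and the exact two-sided permutation test over the 6 lines gave p = 0.1, the smallest that 3 against 3 can give. With no filter on low values the unadjusted p-value was 0.0130 (limma adjusted p = 0.524). Without sg*Kmt2c* line 1, the log2 fold change was 2.33 (limma adjusted p = 0.106), and over all 18 alternatives it ran from 2.33 to 5.73 with adjusted p-values of 0.106 to 0.922. The sums of epithelial markers, given above, followed the order of *Itgb4* within the sg*Kmt2c* lines and were lowest with it in sg*Trp53* line 2. Between the genotypes the orders parted, since sg*Trp53* lines 1 and 3 summed to 1022 and 823 with *Itgb4* at 0.300 and 0.362, while sg*Kmt2c* line 2 summed to 245 with *Itgb4* at 4.51. The part of these markers in the *Itgb4* result was not tested. *Galk1*, a coding gene that overlaps *Itgb4*, was read at 41.0, 92.1 and 56.6 (sg*Trp53*) and 58.0, 72.2 and 76.2 (sg*Kmt2c*) and so did not share its pattern.

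*Itga7*, the third laminin-binding alpha subunit and best known from muscle, was under the filter on low values. It was read at 0.327, 0.703 and 0.760 (sg*Trp53*) and 17.9, 0.135 and 0.291 (sg*Kmt2c*), high in sg*Kmt2c* line 1 alone, 23.5-fold above the next line. *Mettl7b*, a coding gene overlapping *Itga7*, was read at 0.401, 0 and 0.118 (sg*Trp53*) and 194, 0.442 and 0.763 (sg*Kmt2c*), high in the same line. Because the library kit keeps no strand, reads on any stretch that both genes share cannot be told apart. The overlap was found from whole gene spans and shared exons were not checked, so the value of *Itga7* is uncertain.

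**Figure D2:**
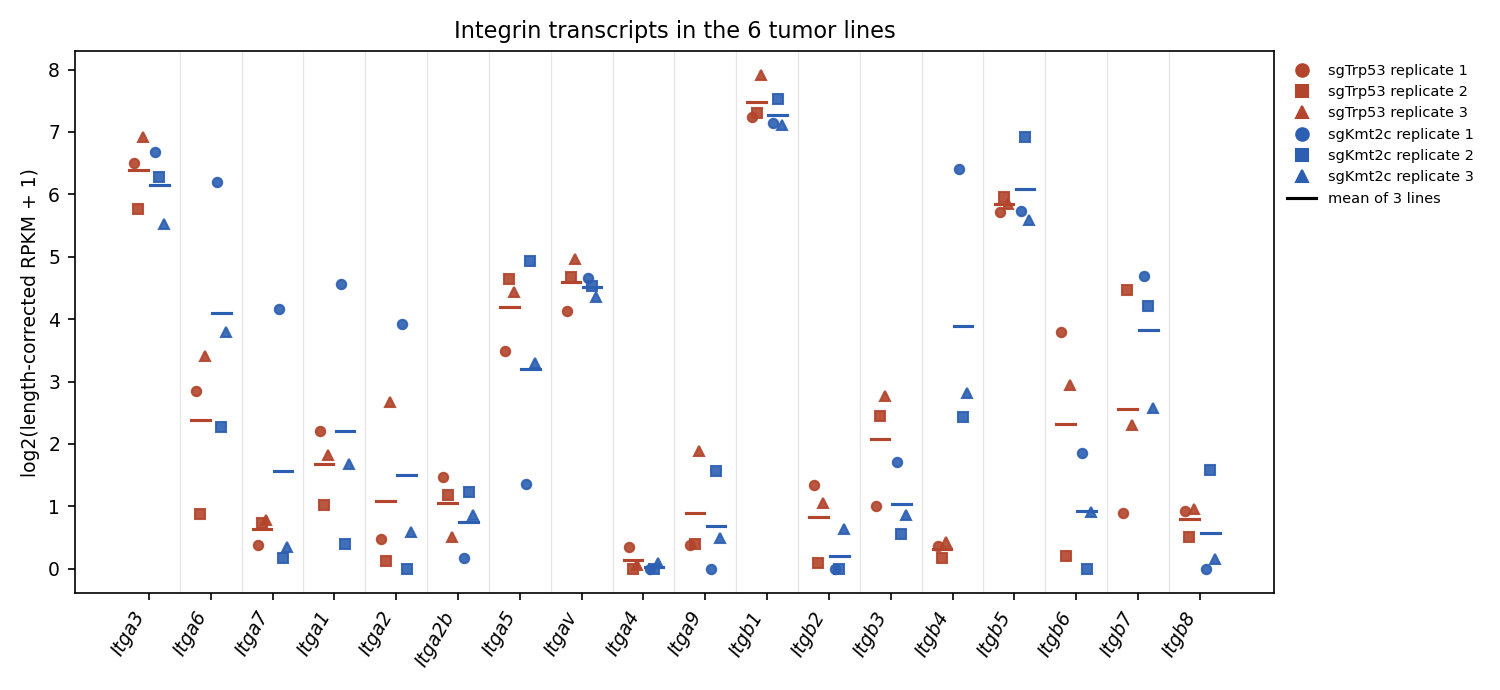
Each point is 1 line, red for sg*Trp53* and blue for sg*Kmt2c* with a symbol per replicate, and bars are means of 3 lines. The y axis is log2 of RPKM + 1 after dividing by the longest coding transcript, for the 18 integrins that reached RPKM 1 in any line, and sg*Kmt2c* replicate 1 stands above the other lines for *Itga6*, *Itga7*, *Itga1*, *Itga2* and *Itgb4*.

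*Itga1* and *Itga2* each pair with *Itgb1* to bind collagen, the coating of the culture plates. *Itga1* was read at 3.62, 1.04 and 2.52 (sg*Trp53*) and 22.7, 0.317 and 2.19 (sg*Kmt2c*), 6.29-fold higher in sg*Kmt2c* line 1 than in the next line and lowest in sg*Kmt2c* line 2. The log2 fold change was 0.53 ± 1.02 (SE, limma adjusted p = 0.880), and it turned to -0.65 without sg*Kmt2c* line 1. *Itga2*, under the filter, was read at 0.389, 0.0892 and 5.37 (sg*Trp53*) and 14.2, 0 and 0.50 (sg*Kmt2c*), and its values were also high in sg*Kmt2c* line 1, 2.63-fold above sg*Trp53* line 3, with 0 reads in sg*Kmt2c* line 2. These genes are neighbours on chromosome 13, *Itga2* at chr13:114835916-114932041 and *Itga1* at chr13:114958079-115101964 (GRCm38, as listed in the deposited table). *Itga10* and *Itga11*, the other collagen-binding alpha subunits, had at most 17 and 16 reads in any line. *Pelo*, which overlaps *Itga1*, was read at 19.9, 13.3 and 18.2 (sg*Trp53*) and 25.1, 11.9 and 21.1 (sg*Kmt2c*), highest in the same line but over a narrower range.

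The promoters of this neighbouring pair are shown because both genes had their highest value in the same line. They run from 250 bases before the RefSeq transcript start to 20 bases after it (GRCm38.p6, minus strand for both, chr13:115101945-115102214 for *Itga1* and chr13:114932081-114932350 for *Itga2*), and capitals mark a GGGCGG match.
Itga1: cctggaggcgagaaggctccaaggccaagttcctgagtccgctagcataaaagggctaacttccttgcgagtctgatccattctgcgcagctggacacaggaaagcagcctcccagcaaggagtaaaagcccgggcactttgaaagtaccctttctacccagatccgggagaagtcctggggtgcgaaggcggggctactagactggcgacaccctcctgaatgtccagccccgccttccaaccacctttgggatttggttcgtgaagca
Itga2: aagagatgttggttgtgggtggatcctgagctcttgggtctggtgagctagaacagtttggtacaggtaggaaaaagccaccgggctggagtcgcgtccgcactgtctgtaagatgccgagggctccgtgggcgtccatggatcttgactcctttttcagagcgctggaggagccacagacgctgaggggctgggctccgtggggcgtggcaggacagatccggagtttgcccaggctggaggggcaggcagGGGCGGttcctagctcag
Motifs were searched on both strands in RefSeq windows of 300 bases (250 before and 50 after the start), which were at hand for 23 of the 37 genes in 26 windows. The AP-1 letters TGANTCA were found in 3 of the 26 windows (of *Itga3*, *Itga9* and *Itgax*) and in 7.81% of all 32851 promoters of the same length. The E-box CACGTG, to which MYC with MAX binds, was in none of the 26 windows and in 7.15% of all promoters. The GC box GGGCGG was in 12 of the 26 windows, from 11 genes, and in 35.7% of all promoters. *Itga1* held none of the 3 motifs, and *Itga2* held a single GC box. The matches describe letters in these windows only.

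Receptors for the RGD motif overlapped between the genotypes. *Itgav*, the alpha subunit shared by several beta partners and a receptor of fibronectin and vitronectin, was read at 16.4, 24.7 and 30.2 (sg*Trp53*) and 24.4, 22.1 and 19.5 (sg*Kmt2c*). It was among the steadiest members, with a spread between lines of a genotype of 0.32 on the log2 scale and a log2 fold change of -0.07 ± 0.26 (SE, 95% CI -0.70 to 0.56, limma adjusted p = 0.940). *Itga5*, the fibronectin receptor subunit, was read at 10.2, 24.1 and 20.7 (sg*Trp53*) and 1.55, 29.5 and 8.87 (sg*Kmt2c*). It was lowest in sg*Kmt2c* line 1, the line in which *Itga6* and *Itgb4* were highest, and its log2 fold change was -0.997 ± 0.87 (SE, limma adjusted p = 0.743) but -0.08 without that line. *Itga2b*, the platelet fibrinogen receptor subunit, was read at 1.77, 1.26 and 0.422 (sg*Trp53*) and 0.123, 1.34 and 0.817 (sg*Kmt2c*) from at most 37 reads, with a log2 fold change of -0.30 (limma adjusted p = 0.829). The platelet markers summed to at most 4.93 RPKM in any line. *Itga8* had 0 reads in all 6 lines.

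Among the beta subunits, *Itgb1*, the partner of most alpha subunits, was read at 151, 157 and 239 (sg*Trp53*) and 141, 184 and 137 (sg*Kmt2c*). It had the smallest spread of the tested members (0.31 on the log2 scale) and a log2 fold change of -0.22 ± 0.25 (SE, limma adjusted p = 0.789). The remaining beta subunits include the partners of *Itgav*. *Itgb5* was read at 51.3, 61.4 and 56.8 (sg*Trp53*) and 52.3, 119 and 47.4 (sg*Kmt2c*), with sg*Kmt2c* line 2 above the rest and a log2 fold change of 0.24 (limma adjusted p = 0.843). *Itgb3* was read at 0.992, 4.42 and 5.75 (sg*Trp53*) and 2.24, 0.469 and 0.809 (sg*Kmt2c*), with the highest values in sg*Trp53* lines 2 and 3. Its log2 fold change was -1.03 ± 0.55 (SE, 95% CI -2.35 to 0.29, limma adjusted p = 0.639), and the genotypes overlapped through sg*Trp53* line 1. *Itgb6*, an epithelial partner that helps release active TGF-beta, was read at 12.9, 0.156 and 6.73 (sg*Trp53*) and 2.61, 0 and 0.876 (sg*Kmt2c*). It was highest in sg*Trp53* lines 1 and 3 and had 4 and 0 reads in the second line of either genotype, and its log2 fold change was -1.4 ± 0.97 (SE, 95% CI -3.71 to 0.91, limma adjusted p = 0.710). *Itgb8*, under the filter, was read at 0.898, 0.425 and 0.933 (sg*Trp53*) and 0, 2.00 and 0.111 (sg*Kmt2c*).

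*Itgb7* is known from lymphocytes, where it pairs with *Itga4* or *Itgae*. Here it was read at 0.858, 21.1 and 3.96 (sg*Trp53*) and 24.8, 17.4 and 4.99 (sg*Kmt2c*), and 3 lines from both genotypes were above 17. The log2 fold change was 1.27 ± 0.97 (SE, 95% CI -1.04 to 3.57, limma adjusted p = 0.720). Its partners were near 0, *Itgae* with at most 3 reads and *Itga4* with 16, 0 and 3 (sg*Trp53*) and 0, 0 and 3 (sg*Kmt2c*) as whole reads. *Itga9*, a close relative of *Itga4* that binds tenascin and VCAM1, was read at 0.304, 0.321 and 2.69 (sg*Trp53*) and 0, 1.97 and 0.400 (sg*Kmt2c*), with sg*Trp53* line 3 and sg*Kmt2c* line 2 above 1.

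The leukocyte subunits were at the edge of detection. *Itgb2*, the beta subunit that defines leukocyte integrins, had 28, 1 and 22 (sg*Trp53*) and 0, 0 and 7 (sg*Kmt2c*) as reads and reached RPKM of 1 in sg*Trp53* lines 1 and 3 only. Its alpha partners *Itgal*, *Itgam*, *Itgax* and *Itgad* had at most 8, 16, 4 and 2 reads in any line. For *Itgal* and *Itgax*, every sg*Kmt2c* line was below every sg*Trp53* line, *Itgax* with 4, 1 and 2 (sg*Trp53*) and 0, 0 and 0 (sg*Kmt2c*) as reads. Both were under the filter and so outside the main test, and *Itgal* had an unadjusted limma p-value under 0.05 with no filter. How often genes under the filter do not overlap was not computed. Counts of 0 allow up to 0.157, 0.201 and 0.1735 RPKM for *Itgax* in the sg*Kmt2c* lines (3 reads, counting error only). Its sg*Trp53* values were 0.162, 0.0465 and 0.0718, so reads at this depth do not separate the genotypes. The summed level of 9 immune markers was lower in every sg*Kmt2c* line, at 49.9, 23.5 and 62.2 (sg*Trp53*) and 6.60, 5.91 and 15.2 (sg*Kmt2c*). *Itgb2* differed from this order, with 1 read in sg*Trp53* line 2 and 7 in sg*Kmt2c* line 3. *Cd3e* and *Cd79a* were listed at 0 in every line, and 3 of the 9 were at RPKM of 1 or more in at least 3 libraries. *Lyz2*, the macrophage lysozyme, was the largest part in the sg*Trp53* lines. *Cd68* overlapped, at 7.60, 2.60 and 4.01 (sg*Trp53*) and 5.35, 5.29 and 1.71 (sg*Kmt2c*). The part of these markers in the result was not tested.

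The laminin chains gave the other gene at which the genotypes separated. *Lamb1* had 572, 93 and 1303 (sg*Trp53*) and 8, 22 and 30 (sg*Kmt2c*) as whole reads, equal to 16.9, 3.15 and 34.0 (sg*Trp53*) and 0.306, 1.07 and 1.26 (sg*Kmt2c*) RPKM. The sg*Trp53* lines themselves spread widely, yet the lowest of them, line 2, was above all sg*Kmt2c* lines. Its mean went from 18.0 ± 15.5 (SD, n = 3 lines) to 0.881 ± 0.507 (SD, n = 3) RPKM, sg*Trp53* to sg*Kmt2c*, with a log2 fold change of -2.91 ± 0.76 (SE, 95% CI -4.73 to -1.09). The unadjusted p-value was 0.00727 and the adjusted one 0.398 (limma), and the exact two-sided permutation p was 0.1, the smallest possible. Over the 18 alternatives the log2 fold change ran from -4.05 to -2.23, with adjusted p-values of 0.162 without sg*Trp53* line 2 to 0.922 without sg*Trp53* line 3. The 9 immune markers given above and 5 smooth muscle and pericyte markers, summing to 22.7, 49.0 and 241 (sg*Trp53*) and 0.433, 10.1 and 18.1 (sg*Kmt2c*), also had lower sums in every sg*Kmt2c* line, and 3 of these 5 were at RPKM of 1 or more in at least 3 libraries. Of the smooth muscle and pericyte markers, *Tagln*, *Cnn1* and *Myh11* were each lower in every sg*Kmt2c* line. *Acta2* overlapped, at 3.50, 10.2 and 124 (sg*Trp53*) and 0, 6.40 and 11.2 (sg*Kmt2c*). *Rgs5* overlapped too, at 0.530 and 0.343 in sg*Kmt2c* lines 2 and 3 and at most 0.106 in the sg*Trp53* lines. Fibroblast and stellate markers overlapped between the genotypes, at 15.2, 986 and 168 (sg*Trp53*) and 0.282, 149.6 and 110.1 (sg*Kmt2c*) in sum. The part of these markers in the *Lamb1* result was not tested.

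*Lamb3*, a beta chain that joins *Lama3* in an epithelial laminin, was read at 7.67, 1.82 and 10.3 (sg*Trp53*) and 218, 2.19 and 15.5 (sg*Kmt2c*). The sg*Kmt2c* line 1 lay 14.1-fold above the next line, which was sg*Kmt2c* line 3, and sg*Kmt2c* line 2 was nearly as low as sg*Trp53* line 2. The log2 fold change was 1.79 ± 1.47 (SE, 95% CI -1.72 to 5.31, limma adjusted p = 0.731) and 0.15 without sg*Kmt2c* line 1. *Lama3*, the alpha chain of this laminin, had only 4, 1 and 9 (sg*Trp53*) and 0, 0 and 8 (sg*Kmt2c*) as reads. *Lamb3* overlaps *G0s2* and *Hsd11b1*, neither of which was above 2.63 RPKM in any line. In sg*Kmt2c* line 1, the 1274 reads of *Lamb3* stood against 0 of *Lama3*, which allows up to 0.0604 RPKM (3 reads, counting error only). The beta chain was therefore abundant in a line in which the alpha chain was not detectable at this depth.

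The promoters of *Lamb1* and *Lamb3* are shown because these beta chains had their highest values in lines of different genotypes. They cover the same stretch from 250 bases before to 20 after the start (RefSeq, GRCm38.p6, plus strand, chr12:31265043-31265312 for *Lamb1* and chr1:193301744-193302013, the more upstream of its windows, for *Lamb3*). Capitals mark GGGCGG read on the opposite strand, as CCGCCC.
Lamb1: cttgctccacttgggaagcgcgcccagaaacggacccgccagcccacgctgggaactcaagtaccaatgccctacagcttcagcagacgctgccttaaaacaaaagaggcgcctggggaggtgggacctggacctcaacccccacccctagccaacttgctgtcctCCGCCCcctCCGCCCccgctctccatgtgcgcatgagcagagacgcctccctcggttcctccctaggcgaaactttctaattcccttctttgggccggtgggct
Lamb3: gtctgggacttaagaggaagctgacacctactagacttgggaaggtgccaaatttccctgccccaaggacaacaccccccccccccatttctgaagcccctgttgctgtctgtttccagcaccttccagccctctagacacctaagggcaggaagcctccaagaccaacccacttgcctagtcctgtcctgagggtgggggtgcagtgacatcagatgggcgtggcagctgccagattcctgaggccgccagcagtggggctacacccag
*Lamb1* held 2 GC boxes, 84 and 75 bases before the start, and *Lamb3* held none of the 3 motifs.

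**Figure D3:**
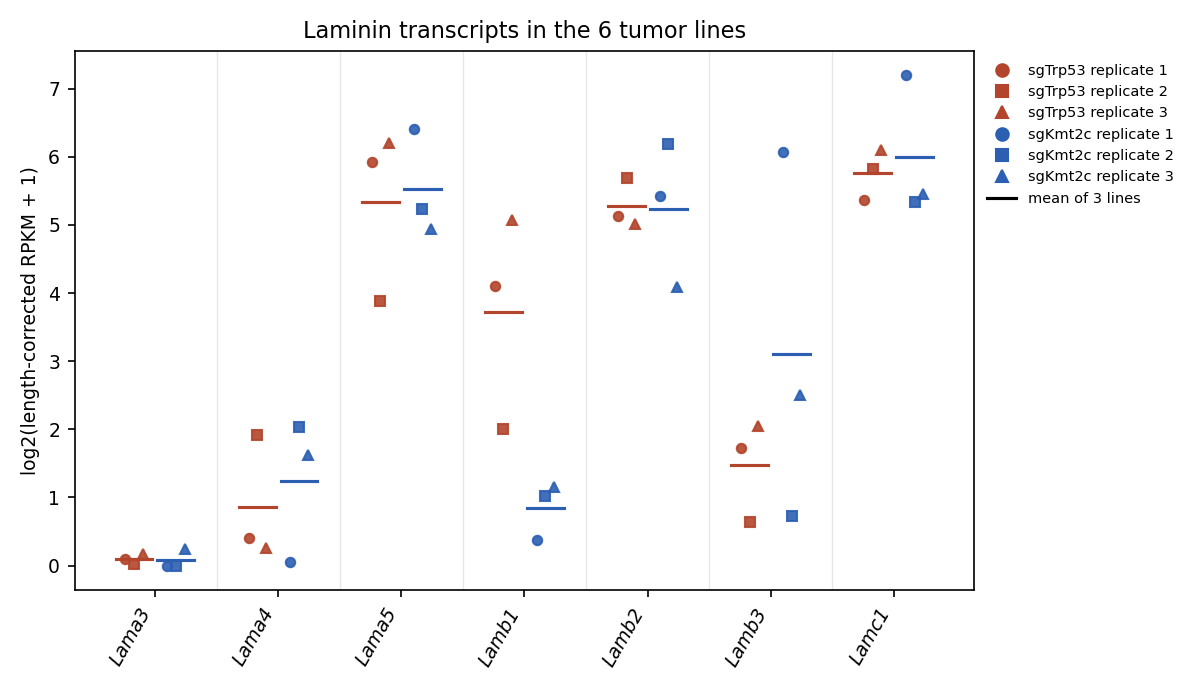
Each point is 1 line, red for sg*Trp53* and blue for sg*Kmt2c* with a symbol per replicate, bars are means of 3 lines, and the y axis is log2 of RPKM + 1 after dividing by the longest coding transcript. For *Lamb1* the 3 sg*Trp53* lines lie above the 3 sg*Kmt2c* lines, while for *Lamb3* sg*Kmt2c* replicate 1 stands alone at the top and *Lama3* is near 0 in every line.

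The other laminin chains overlapped between the genotypes. *Lama5*, the alpha chain of most adult epithelial basement membranes, was read at 923, 214 and 1129 (sg*Trp53*) and 1307, 569 and 459 (sg*Kmt2c*), with sg*Trp53* line 2 lowest and a log2 fold change of 0.20 ± 0.70 (SE, limma adjusted p = 0.934). *Lamb2* was read at 575, 859 and 532 (sg*Trp53*) and 708, 1223 and 271 (sg*Kmt2c*), with a log2 fold change of -0.05 (limma adjusted p = 0.978). *Lamc1*, the common gamma chain, was read at 40.1, 55.6 and 67.5 (sg*Trp53*) and 146, 39.3 and 42.7 (sg*Kmt2c*), 2.16-fold higher in sg*Kmt2c* line 1 than in the next line, with a log2 fold change of 0.23 (limma adjusted p = 0.897). *Lama4*, a chain of vessel and mesenchymal basement membranes, was read at 0.325, 2.77 and 0.192 (sg*Trp53*) and 0.0351, 3.10 and 2.09 (sg*Kmt2c*). Its 3 highest lines were sg*Trp53* line 2 and sg*Kmt2c* lines 2 and 3, and its lowest was sg*Kmt2c* line 1, where the fibroblast and stellate markers given above also had their lowest sum. The log2 fold change of *Lama4* was 0.38 (limma adjusted p = 0.866), and the part of those markers was not tested. *Lama1*, *Lama2* and *Lamc3* had at most 2 reads in any line.

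Levels of different genes can be compared only per length, and here the deposited values needed a correction. The listed transcript was less than 50% of the longest coding transcript in 5 of the 37 genes, namely *Lama5* (734 against 11388 bases), *Lamb2* (332 against 5624), *Itga6* (707 against 4310), *Lamb3* (1240 against 4092) and *Itga4* (2314 against 9830), and in 11.5% of 10859 tested genes with such a transcript. A short listed length raises the RPKM of a gene beside others but leaves its ratio between lines as it is. After dividing by the longest coding transcript, the median RPKM over 6 lines was highest for *Itgb1* (154), followed by *Itga3* (83.1), *Itgb5* (54.5), *Lamc1* (49.2), *Lama5* (48.1) and *Lamb2* (37.9). Widely expressed chains led this order, and *Itgb4* and *Lamb1*, for which the genotypes were apart, stood at 2.36 and 2.12. On this scale the lines of *Itgb1* ranged from 137 to 239 and those of *Itga3* from 44.8 to 120, so the first of these was above the second in every line.

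Shares within a class of chains, computed from length-corrected RPKM, show how the mix of transcripts differed. Of the laminin alpha chains, *Lama5* made up 94.0% ± 9.38 (SD, n = 3) in sg*Trp53* and 95% ± 4.30 (SD, n = 3) in sg*Kmt2c* lines, the rest being mostly *Lama4*. Of the beta chains, *Lamb1* made up 30.9, 5.57 and 48.7 (sg*Trp53*) and 0.271, 1.40 and 5.55 (sg*Kmt2c*) percent. Its share was highest in sg*Trp53* lines 1 and 3, but sg*Trp53* line 2 and sg*Kmt2c* line 3 were nearly equal (exact two-sided permutation p = 0.1, the smallest possible). With the listed lengths the shares of *Lamb1* overlapped (exact two-sided permutation p = 0.2), so this separation rests on the length used. *Lamb3* made up 4.43, 1.02 and 4.64 (sg*Trp53*) and 61.1, 0.897 and 21.4 (sg*Kmt2c*) percent, and in sg*Kmt2c* line 1 it was the leading beta chain on this scale, whereas *Lamb2* led in the lines sg*Trp53* 1 and 2 and sg*Kmt2c* 2 and 3. In sg*Trp53* line 3 *Lamb1* and *Lamb2* were close, at 48.7 and 46.7 percent. With the listed lengths *Lamb2* led in all 6 lines, at 76.4 against 23.5 percent for *Lamb3* in sg*Kmt2c* line 1.

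Of the integrin beta subunits, *Itgb1* made up 69.6% ± 5.95 (SD, n = 3) in sg*Trp53* and 57.1% ± 11.7 (SD, n = 3) in sg*Kmt2c* lines (exact two-sided permutation p = 0.3). *Itgb4* made up 0.132, 0.0495 and 0.112 (sg*Trp53*) and 27.4, 1.33 and 3.05 (sg*Kmt2c*) percent (exact two-sided permutation p = 0.1, the smallest possible). Its share in sg*Kmt2c* line 1 was far above that in any other line. Of the alpha subunits, *Itga3* led in all lines at 39.9 to 69.0 percent, while *Itga6* made up 4.77, 0.771 and 4.95 (sg*Trp53*) and 28.6, 2.82 and 14.2 (sg*Kmt2c*) percent (exact two-sided permutation p = 0.3). With the listed lengths *Itga6* led instead in sg*Kmt2c* line 1, at 70.3 against 16.8 percent for *Itga3*, and in sg*Kmt2c* line 3, at 49.4 against 29.5 percent, so this order too rests on the length used. Exact tests were run on the shares of all 37 genes under both lengths, and with 3 lines against 3 none can pass 0.05, before or after adjustment.

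**Figure D4:**
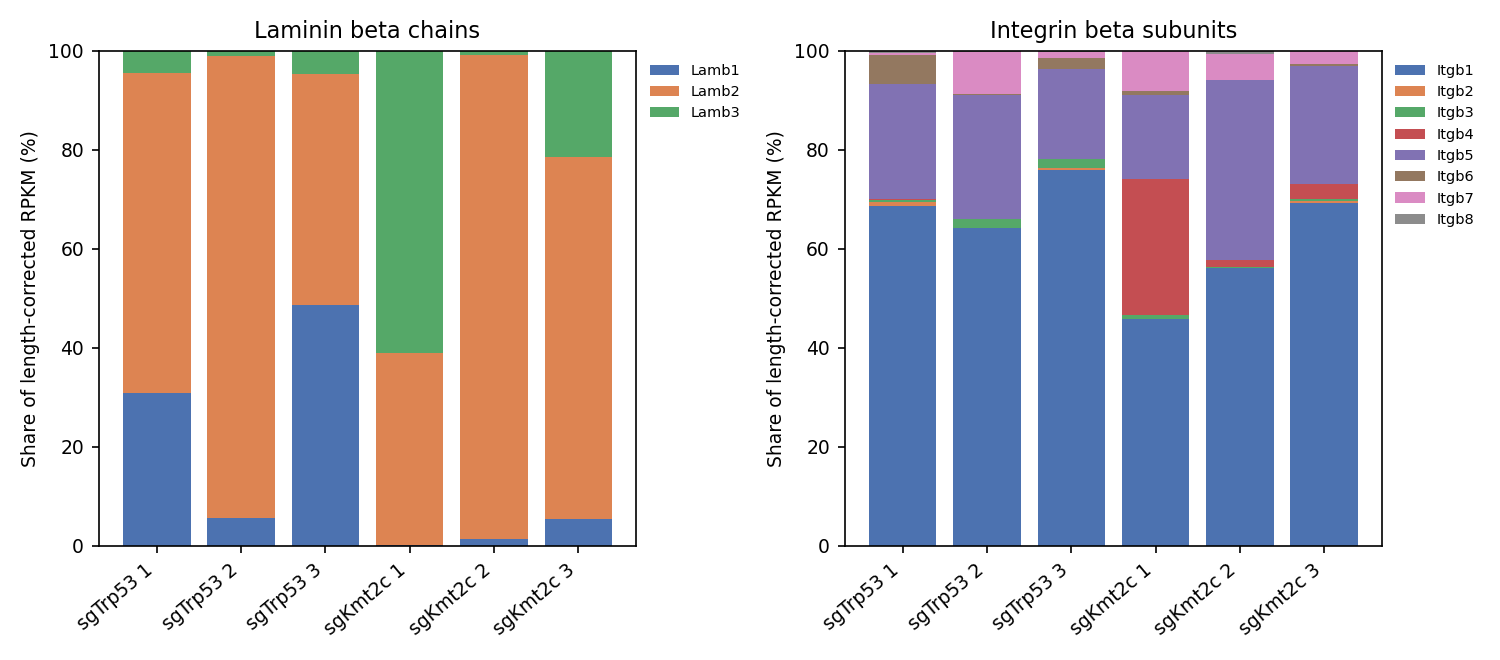
Stacked bars give, for each of the 6 lines, the share in percent of length-corrected RPKM taken by each laminin beta chain (left) and each integrin beta subunit (right). *Lamb1* takes a larger share in sg*Trp53* lines 1 and 3 than in any sg*Kmt2c* line, *Lamb3* reaches 61.1 percent and *Itgb4* 27.4 percent in sg*Kmt2c* line 1, and *Itgb1* is the leading beta subunit throughout.

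Lines of the same genotype differed more in this family than in most genes. The SD within a genotype, pooled over both on the log2(RPKM + 1) scale, had a median of 1.08 over the 19 tested members against 0.37 over all genes tested. Among the tested genes of related lists some spread more widely, with medians of 1.32 for other basement membrane proteins and 1.30 for other integrin ligands. Others spread less, with medians of 0.46 for hemidesmosome and tetraspanin partners, 0.44 for adhesion complex genes and 0.36 for non-integrin laminin receptors. The SD was above the median of all genes for 17 of the 19, and 10 of 19 (52.6%) exceeded 1 log2 unit, as did 9.81% of all genes tested. *Itgb1* and *Itgav* were the members below that median, and *Lamb3* and *Itga6* were among those with the widest spread, at 2.30 and 1.94.

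**Figure D5:**
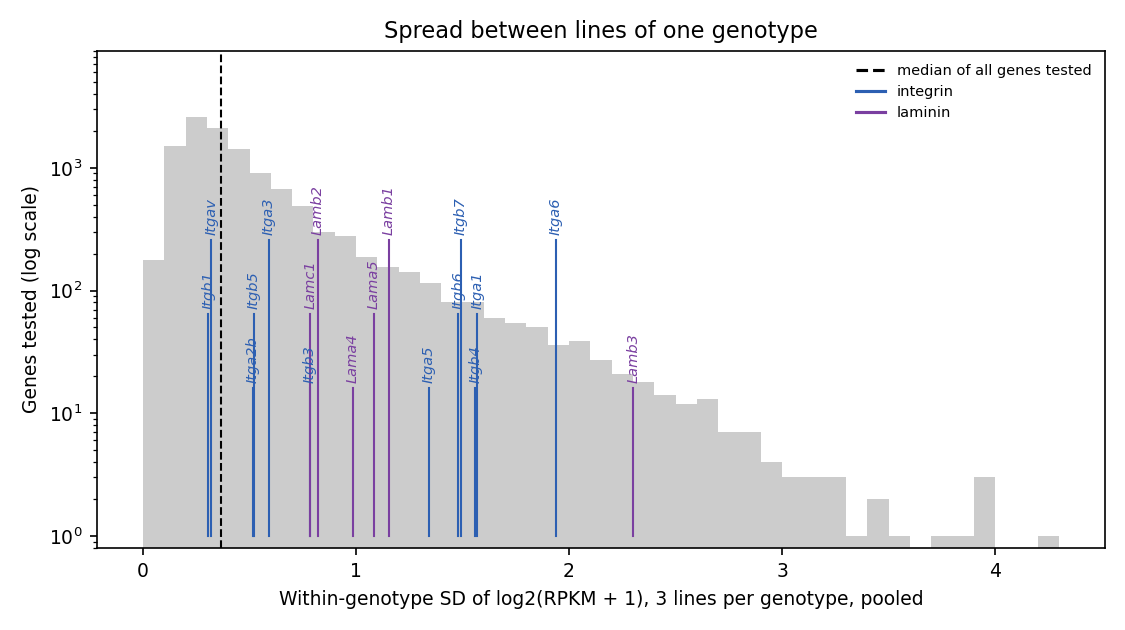
The grey histogram counts all 11617 genes tested by their SD between lines of a genotype on the log2(RPKM + 1) scale, with the number of genes on a log axis, and vertical lines place 18 of the 19 members, whose line heights only separate the labels. The dashed line is the median of all genes (0.37), and 16 of the 18 members drawn lie to its right.

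Much of the contrast was between sg*Kmt2c* line 1 and the others. It was the highest line in 8 of the 19 tested members (42.1%) and in 23.6% of all genes tested, ahead of sg*Trp53* line 3 with 5, sg*Kmt2c* line 2 with 4 and sg*Trp53* line 1 with 2. It lay at least 4-fold above every other line in 5 of the 19 (26.3%), *Itgb4*, *Lamb3*, *Itga1* and *Itga6* among them, and in 1.58% of all genes tested. The epithelial markers had their highest sum in this line too, as had the hepatocyte markers, with *Cdh1*, the epithelial cadherin, at 2.81, 0.849 and 9.86 (sg*Trp53*) and 191, 0.306 and 4.86 (sg*Kmt2c*), and both lists had their lowest sums in sg*Trp53* line 2 and sg*Kmt2c* line 2, the lines in which *Itga6* and *Lamb3* were also lowest. All 7 epithelial markers were at RPKM of 1 or more in at least 3 libraries, and none was at 0 in any line. The part of the epithelial and hepatocyte markers in these results was not tested.

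Genes around the family were read from 5 lists of partners. The lists were chosen with earlier results of these data known, so their shares only describe them. No gene of these lists passed the adjusted threshold. Of the hemidesmosome and tetraspanin partners, 8 of 9 were tested, 7 had a fold change above 0, and 4 (50%) had an unadjusted p-value under 0.05 beside 8.58% of all genes tested. All 4 were higher in the sg*Kmt2c* lines, and the median log2 fold change was 0.61, or 0.37 with no filter on low values (lowest limma adjusted p = 0.322). *Plec*, the plectin that ties *Itgb4* to keratin, was read at 51.5, 49.4 and 55.7 (sg*Trp53*) and 174, 144 and 74.2 (sg*Kmt2c*), with a log2 fold change of 1.22 ± 0.33 (SE, limma adjusted p = 0.405). *Cd151*, the tetraspanin that binds laminin-receptor integrins, was read at 39.3, 49.1 and 44.7 (sg*Trp53*) and 110.5, 79.2 and 59.4 (sg*Kmt2c*), with a log2 fold change of 0.85 ± 0.26 (SE, limma adjusted p = 0.465). Every sg*Kmt2c* line was above every sg*Trp53* line for *Plec*, *Cd151* and *Cd9*. The log2 fold change was 1.13 for *Cd9* (limma adjusted p = 0.322) and 1.05 for *Cd82* (limma adjusted p = 0.576), both tetraspanins. Apart from *Plec*, the genes called were thus tetraspanins. *Dst* and *Col17a1*, further hemidesmosome genes of the list, were not called. *Dst* overlapped at 252, 399 and 424 (sg*Trp53*) and 288, 447 and 225 (sg*Kmt2c*), with a log2 fold change of -0.19 (limma adjusted p = 0.866). *Col17a1*, under the filter, was at most 0.0485 RPKM in any line.

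Of 13 non-integrin laminin receptors and enzymes that glycosylate dystroglycan, 12 were tested and 2 (16.7%) had an unadjusted p-value under 0.05, both higher, beside 8.58% of all genes tested (3.25% higher), with a median log2 fold change of -0.12 that turned to 0.14 without sg*Kmt2c* line 1. *Sdc1*, a heparan sulfate proteoglycan of epithelial cells, was read at 341, 423 and 559 (sg*Trp53*) and 1692, 1361 and 958 (sg*Kmt2c*), with no overlap between the genotypes (log2 fold change 1.59 ± 0.29 SE, limma adjusted p = 0.215).

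Other basement membrane proteins leaned the other way, with a median log2 fold change of -0.89 over 14 tested genes of 23 (-1.29 to -0.45 with a line left out), 1 of them higher and 2 lower at an unadjusted p-value under 0.05 (21.4%, beside 8.58% of all genes tested). *Nid1*, the nidogen that links laminin to collagen IV, was read at 11.3, 22.9 and 54.7 (sg*Trp53*) and 2.60, 0.359 and 2.98 (sg*Kmt2c*), with a log2 fold change of -3.24 ± 0.65 (SE, limma adjusted p = 0.266). Like *Lamb1*, it was lower in every sg*Kmt2c* line than in any sg*Trp53* line, as were the sums of the smooth muscle and pericyte and of the immune markers given above, whose part in the values of this list was not tested. Not every marker in those sums separated the genotypes, *Acta2*, *Rgs5* and *Cd68* being among those that overlapped. *Col4a5*, a collagen IV chain, differed by a log2 fold change of -1.91 (limma adjusted p = 0.343) and *Ntn4*, a netrin that disrupts laminin networks, one of 1.45 (limma adjusted p = 0.427).

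Inside the cell, 29 of 35 adhesion complex genes were tested, with a median log2 fold change of -0.02 (-0.25 to 0.013 with a line left out), 1 gene higher and 5 lower at an unadjusted p-value under 0.05 (20.7%, beside 8.58% of all genes tested). *Zyx*, a zyxin of mature focal adhesions, was read at 71.4, 64.8 and 105 (sg*Trp53*) and 54.5, 43.0 and 35.3 (sg*Kmt2c*), with a log2 fold change of -0.84 (limma adjusted p = 0.478). *Vcl*, the vinculin that reinforces them, stood at -0.66 (limma adjusted p = 0.569), and the tensins *Tns1* and *Tns3* had -1.86 and -0.74 (limma adjusted p = 0.497 and 0.445). The docking protein *Nedd9* had -0.91 (limma adjusted p = 0.569) and *Parvb*, a parvin, 2.19 (limma adjusted p = 0.501). Among 18 tested genes of the 26 other integrin ligands the median was -0.53, or -0.019 without sg*Trp53* line 3, with 2 lower and none higher at an unadjusted p-value under 0.05 (11.1%, near the 8.58% of all genes tested). These were *Cyr61*, a matricellular ligand, with a log2 fold change of -1.20 (limma adjusted p = 0.322), and *Vcam1*, the ligand of the *Itga4* and *Itga9* receptors, with -2.42 (limma adjusted p = 0.528).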

How the data were processed

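RNA of 6 tumor lines was made into TruSeq RNA v2 libraries. The submitters' processing notes name Trimmomatic, STAR, HTSeq, DESeq2 1.8.2 and the builds GRCm38 and mm10, and how strand was counted is not given in the sources used here. The authors deposited RPKM, which divides the reads of a gene by 1 listed transcript length and by the total of reads counted. The authors' table of their own DESeq2 comparison holds mean normalized counts, log2 fold changes with errors, a statistic and p-values, and was not used. The table of RPKM has 6 further sample columns, which were not used.

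RPKM multiplied by the listed length came within 0.01 of whole reads for 100% of 92301 values above 0, which gave reads per gene, and precision is limited by 3680068 to 6878625 reads per library. Genes that reached RPKM 1 in 3 or more of 6 libraries were tested on log2(RPKM + 1) with limma 3.58.1 in R 4.3.3 (eBayes with trend, genotype as the only term, Benjamini-Hochberg over 11617 genes). Exact permutation tests are two-sided. The members and the gene lists were chosen with earlier results of these data known. Named are all members by line where any line reached RPKM of 1, and genes of the surrounding lists with an unadjusted p-value under 0.05, except 1 member and 1 gene of those lists that are not reported here, though counts and medians include them. *Dst* and *Col17a1* of the hemidesmosome and tetraspanin list are named besides. Length-corrected RPKM uses the longest coding transcript of a gene in GENCODE vM1, an alternative that was chosen after the data were seen. Further alternatives changed the pseudocount (0.1 and 0.5), the filter, the scaling between libraries, the moderation, the replicate block, the lines included and the test (voom on recovered reads). Plots were drawn with matplotlib 3.10.9.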

Additional observations from a re-analysis of the deposited data

How the results depend on the processing

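No member passed an adjusted p-value of 0.05 under any of the 18 alternatives, in limma or in voom. *Itgb4* and *Lamb1* kept their direction and an unadjusted p-value under 0.05 in all 18. The count of members at an unadjusted p-value under 0.05 was 2, and it ran from 2 to 5 with a line left out (4 without sg*Trp53* line 2 and 5 without sg*Kmt2c* line 2). The share of all genes moves with the line left out as well, so these counts alone are not a result about the family. Replicate numbers were taken only to name the lines. In their deviations from the genotype means, same-numbered lines correlated at 0.19, 0.40 and 0.03, and differently numbered lines at -0.28 to 0.15. Whether the numbers pair the samples cannot be told from these values. With the replicate block the count was 4, with *Itga6* and *Itgb6* added, beside 9.34% of all genes tested.

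The median of the hemidesmosome and tetraspanin list was 0.37 with no filter on low values, 0.78 with sg*Kmt2c* lines 2 and 3 as 1 sample, and 0.55 to 0.89 with a line left out. That of the other integrin ligands ran from -0.95 to -0.019 (without sg*Trp53* line 3), and that of the non-integrin laminin receptors from -0.31 to 0.14 (without sg*Kmt2c* line 1).

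Small fold changes turned direction, none of them past a threshold. With median-of-ratios scaling *Itgav* was 0.0044 and *Lamb2* 0.025, with quantile normalization *Itga2b* was 0.045, and with sg*Kmt2c* lines 2 and 3 as 1 sample *Lamb2* was 0.18. With a line left out, values ran from -0.56 to 0.078 for *Itga3* (above 0 without sg*Trp53* line 3 at 0.02 and sg*Kmt2c* line 3), -0.30 to 0.12 for *Itgav* (above 0 without sg*Trp53* line 3 and, at 0.0075, sg*Kmt2c* line 3), -0.55 to 0.54 for *Lamb2* (above 0 without sg*Kmt2c* line 3 and, at 0.16, sg*Trp53* line 2) and -0.55 to 0.65 for *Lama5* (below 0 without sg*Trp53* line 2 and, at -0.25, sg*Kmt2c* line 1). They ran from -0.37 to 0.56 for *Lamc1* and -0.65 to 1.44 for *Itga1* (both below 0 without sg*Kmt2c* line 1), and -0.019 to 0.97 for *Lama4* and -0.18 to 0.48 for *Itgb5* (both below 0 without sg*Kmt2c* line 2). The cause was not tested. Depth limits *Lama3*, *Itga4*, *Itga8* and the leukocyte subunits, which rest on at most 28 reads per line.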
